A study of Homo sapiens with 4 samples.

Results

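The genes described are splicing regulators of 3 kinds: SR splicing factors (SRSF genes), heterogeneous nuclear ribonucleoproteins (HNRNP genes), and named partners of both (TRA2A, TRA2B, PTBP2, U2AF1, U2AF2, SRRM1, SRRM2, CLK1, SRPK1 and SRPK2). They were taken by gene symbol, and where a gene had more than 1 probe set (the short array probes that together read a transcript) the one used was chosen by its mean over all 4 arrays, the highest being kept. That mean does not use the difference between the groups. This gave 39 genes, 10 SRSF, 19 HNRNP and 10 partners, of 17716 genes with a probe set of their own. SRSF2, SRSF9, HNRNPH2 and PTBP1, 4 further genes of these families, were read by probe sets that also name another gene, and their levels are not used here.

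Total RNA was measured on 4 Affymetrix arrays of Hs683, a human cell line from a brain glioma. All 4 samples carried a knockdown of QK (current symbol QKI). A pair of samples had been transduced with miR-20a and a pair with miR-NT, a scrambled control microRNA, and no sample without the knockdown was used here. The labels give no time, dose or vector. Nor do they tell whether replicates are separate cultures, so all p-values rest on the spread between single arrays, which may be technical.

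SR proteins carry RNA-recognition motifs and a tail of alternating arginine and serine, and mostly bind exonic enhancers and recruit the splicing machinery. The hnRNPs coat nascent transcripts, and several of them oppose SR proteins in the choice of splice sites. QKI, knocked down in both groups, is itself a splicing regulator of glial cells. MicroRNAs such as miR-20a pair through their seed, the bases 2 to 8 from the 5′ end, with target transcripts and lower their stability or translation.

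The sequence of the microRNA that separates the groups is shown with other members of its seed family, since the shared seed is what defines them. The mature sequences are those of RefSeq (GRCh38.p14), written 5′ to 3′ with the seed in capitals. The labels do not name the arm of miR-20a, and the 5p arm, the one usually meant, is printed.
hsa-miR-20a-5p: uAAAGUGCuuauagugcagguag
hsa-miR-17-5p: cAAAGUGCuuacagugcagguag
hsa-miR-106b-5p: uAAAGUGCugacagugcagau
hsa-miR-93-5p: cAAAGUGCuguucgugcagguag
The first of these lies at chr13:91351072-91351094 on the plus strand. No transcript sequences were searched for seed matches, so which splicing factor genes carry one was not tested.

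Array medians lay between 6.43 and 6.45 on the log2 scale of the deposited values. QKI measured 7.52 and 7.08 with miR-20a, against 8.14 and 7.92 with miR-NT, without overlap (log2 fold change −0.73, SE 0.16, limma adjusted p = 0.106). Its part in the values of the splicing factors was not tested. The control probe set for the 5′ end of ACTB, which falls where RNA is degraded or labelled poorly, measured 11.59 and 10.43 with miR-20a, against 12.78 and 12.66 with miR-NT. That for the 5′ end of GAPDH measured 13.17 and 12.30 with miR-20a, against 13.89 and 13.81 with miR-NT. Of 17 glial and glioma markers 16 were measured and 9 lay above the filter on dim genes, VIM, CD44 and SOX9 among them, while GFAP, S100B, NES, OLIG1, OLIG2, AQP4 and SLC1A3 were left out as dim. The log2 values of the 16 summed to 103.39 and 103.33 with miR-20a, against 102.98 and 103.42 with miR-NT. Within the 9, CD44 was lower (log2 fold change −0.87) and PDGFRA (0.37), CSPG4 (0.36) and FABP7 (0.27) were higher at an unadjusted limma p under 0.05. Above the filter were also 5 of 6 neuronal markers (MAP2, TUBB3, RBFOX3, SYP and SNAP25) and 3 of 6 epithelial markers (the keratins KRT8, KRT18 and KRT5). So were 2 of 4 measured immune markers (AIF1 and CD3E) and 1 of 4 endothelial markers (PECAM1). NEFL, EPCAM, CDH1, KRT19, PTPRC, CD14, CDH5, VWF and KDR were dim. Of these other markers RBFOX3 (0.32), CD3E (0.28) and PECAM1 (0.30) were higher at an unadjusted p under 0.05, and 0 were lower. No marker passed over all genes, and their part in the results was not tested.

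Splicing factors lay mostly lower with miR-20a, and no single one passed the test over all genes. The filter left out the 30% of genes with the lowest mean over all arrays. It kept 12401 genes, 37 of the splicing factors among them. Of these 37, 31 had a log2 fold change (miR-20a minus miR-NT) below 0 and 6 above, where 53.8% of all tested genes lay below 0. Their median log2 fold change was −0.26, and that of all genes tested was −0.02. Both arrays with miR-20a lay below both with miR-NT for 29 of the 37, against 31.1% of all tested genes, and above both for 4, against 25.1%. The groups overlapped for HNRNPA1, HNRNPL, SRPK1 and CLK1. At an adjusted p under 0.05 in limma, a linear model with moderated variances, 0 splicing factors were lower (0.00806% of all tested genes were) and 0 higher (0% of all tested genes). At an unadjusted p under 0.05, 20 were lower, against 13.2% of all tested genes, and 0 higher, against 5.82%. A log2 fold change below −0.5 was seen in 7 of the 37, against 3.81% of all tested genes, and one above 0.5 in 0, against 0.153%. After quantile normalization the counts at an unadjusted p under 0.05 were 14 lower and 3 higher, and over all genes 1451 lower and 1583 higher. In bulk RNA, fewer cells with a transcript and less of it per cell cannot be told apart.

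Other values moved with this difference. Within the miR-20a pair, replicate 2 had the lower ACTB 5′ signal (replicate 2 minus replicate 1, −1.16), and 32 of the 37 splicing factors were lower on it than on replicate 1, against 58.9% of all tested genes. The median of these within-pair differences was −0.20 for the splicing factors and −0.04 for all genes. Within the miR-NT pair, whose ACTB 5′ difference was −0.11, 29 of the 37 were lower on replicate 2, against 66.5% of all tested genes, with a median of −0.09. Without miR-20a replicate 2, the splicing factors' median log2 fold change was −0.16, with 30 of 37 below 0. The median of all genes was then −0.01. When the ACTB 5′ signal entered the fit as covariate, their median was 0.05, the same as for all genes. Of the 37, 14 were then below 0, against 5255 of all 12401 genes. That fit has 1 residual degree of freedom. ACTB 5′ values did not overlap between the groups and differed by −1.71, so the fit can hardly part the covariate from the group. The covariate's slope rests mostly on the miR-20a pair. What part RNA quality had in the difference was not tested.

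**Figure D1:**
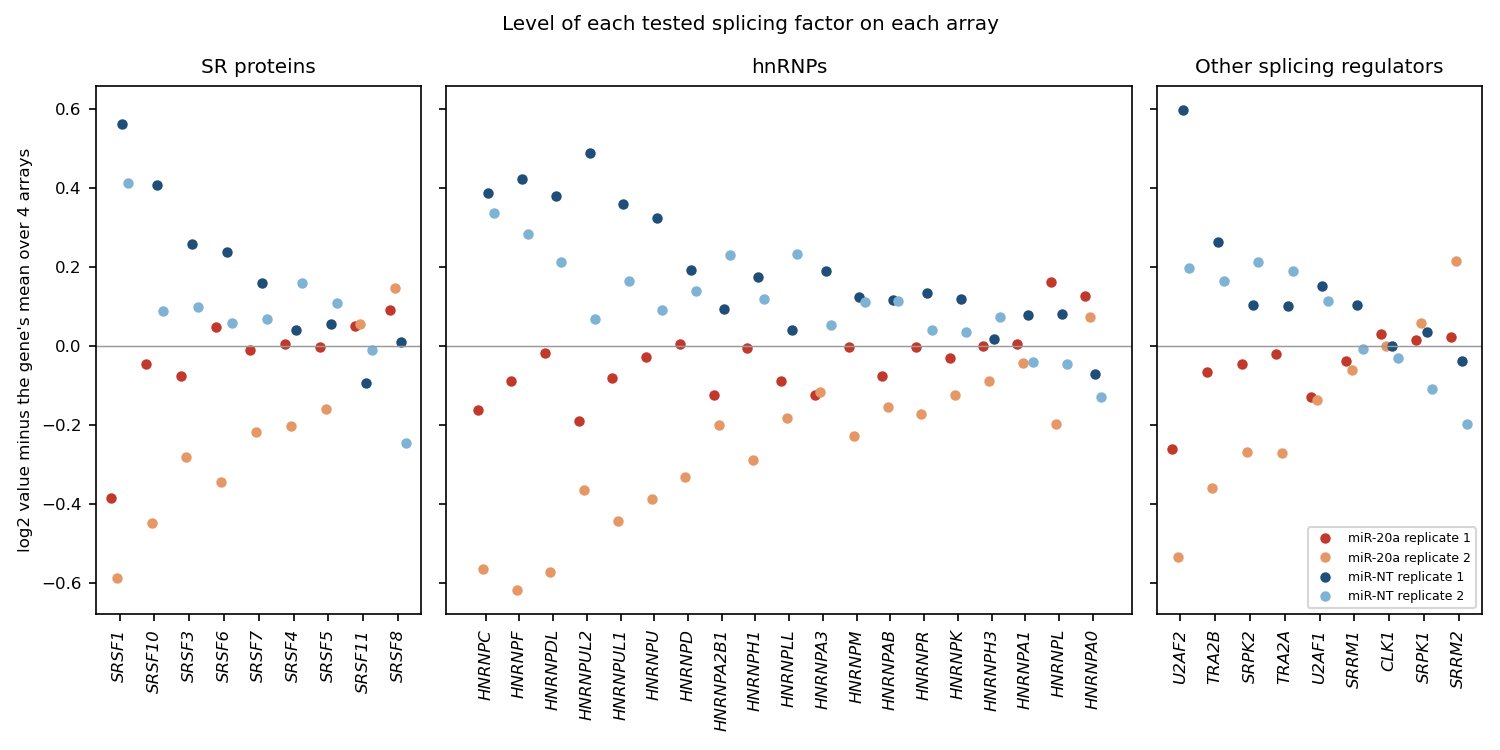
Each point is the log2 value of 1 gene on 1 array minus that gene's mean over the 4 arrays, for the 37 splicing factors tested, with genes on the horizontal axis ordered by log2 fold change within each family. The miR-20a points (red and orange) lie below the miR-NT points (dark and light blue) for 29 genes, and miR-20a replicate 2 is lower than replicate 1 for 32.

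**Figure D2:**
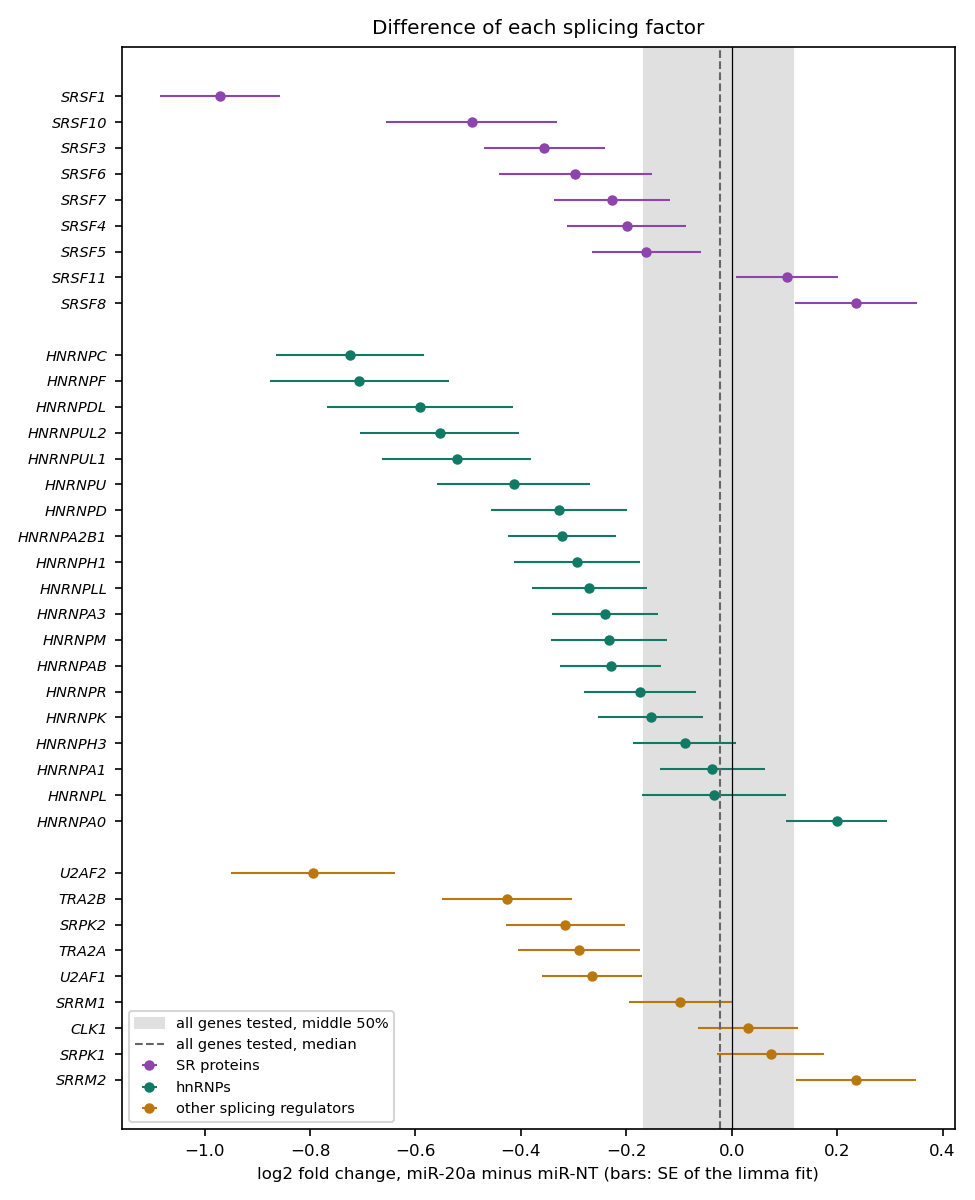
The log2 fold change of each splicing factor (miR-20a minus miR-NT, n = 2 arrays each) is plotted with the SE of the limma fit, beside the median (dashed) and the middle 50% (grey band) of all 12401 genes tested. SRSF1, U2AF2, HNRNPC and HNRNPF have the lowest values, and SRSF8, SRRM2, HNRNPA0, SRSF11, SRPK1 and CLK1 lie above 0.

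Splicing factors were bright on these arrays, and bright genes as a whole lay lower with miR-20a. Of the 37, 22 belonged to the 3100 brightest tested genes, whose median log2 fold change was −0.09, with 68.0% below 0. The 22 splicing factors there had a median of −0.23, and 21 of them were below 0. Among the next 3100 genes by level, whose median was −0.04, 8 splicing factors had a median of −0.38, and 6 were below 0. Below these lay 3100 genes and then 3101 genes, both with a median of 0.03, and 1 of 4 and 3 of 3 splicing factors in them were below 0.

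The 9 tested SR proteins had log2 fold changes with a median of −0.23, 7 below 0 and 2 above, none of them passing over all genes (limma adjusted p from 0.0727 to 0.537). The median kept its sign after quantile normalization (−0.10) and median centring, and was 0.09 under the ACTB 5′ covariate. At an unadjusted limma p under 0.05, 3 were lower and 0 higher, against 13.2% and 5.82% of all tested genes. Both arrays with miR-20a lay below both with miR-NT for 7, against 31.1% of all tested genes. The family's median was −0.10 without miR-20a replicate 2.

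SRSF1, a founding SR protein that acts in constitutive and alternative splicing and is known as an oncogene in several tumours, had the lowest value of all 37. It measured 8.39 and 8.19 with miR-20a, against 9.33 and 9.18 with miR-NT. The gap between the groups was wider than the difference within either pair. The log2 fold change of −0.97 (SE 0.11) is 1.96-fold lower, and limma gave it an adjusted p of 0.0727. The adjusted p fell under the threshold after quantile normalization (0.0419), after median centring (0.0421) and with an intensity trend and robust prior (0.0412). Leaving out an array gave 0.000130 (miR-20a replicate 2), 5.66e-07 (miR-20a replicate 1), 0.701 (miR-NT replicate 1) and 0.321 (miR-NT replicate 2). A group left with a lone array borrows the other pair's spread, so these calls depend on which pair is kept. The log2 fold change itself stayed between −1.07 and −0.87 with an array left out, and was −0.66 with the ACTB 5′ covariate.

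The other classical SR proteins differed by less. SRSF3, which also takes part in mRNA export, measured 10.996 and 10.791 with miR-20a, against 11.328 and 11.170 with miR-NT. These values do not overlap, and the log2 fold change was −0.36 (SE 0.12, limma adjusted p = 0.190). SRSF6, a regulator of alternative exons, measured 9.00 and 8.61 with miR-20a, against 9.19 and 9.01 with miR-NT (log2 fold change −0.30). The gap of SRSF6 between groups was far narrower than the difference of 0.39 within the miR-20a pair. SRSF7, an SR protein with a zinc knuckle, measured 11.71 and 11.51 with miR-20a, against 11.88 and 11.79 with miR-NT, also without overlap (log2 fold change −0.23). SRSF4 and SRSF5 had log2 fold changes of −0.20 and −0.16, with limma adjusted p of 0.356 and 0.396. All 6 classical SR proteins tested thus lay below 0, against 53.8% of all tested genes, with a median of −0.26. With the ACTB 5′ covariate 2 of them were below 0, and their median was 0.07.

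SR proteins outside this group were mixed. SRSF10, which represses splicing when it loses its phosphates, measured 7.96 and 7.56 with miR-20a, against 8.41 and 8.09 with miR-NT. Replicates of SRSF10 differed by 0.40 and 0.32 within the groups, and its log2 fold change was −0.49 (SE 0.16, limma adjusted p = 0.193). SRSF8, encoded by an expressed retrocopy related to SRSF2, measured 7.19 and 7.25 with miR-20a, against 7.11 and 6.85 with miR-NT (log2 fold change 0.24, SE 0.12, limma adjusted p = 0.306). SRSF11, an SR-related factor, measured 7.59 and 7.59 with miR-20a, against 7.44 and 7.53 with miR-NT (log2 fold change 0.11). Both arrays with miR-20a lay above both with miR-NT for these last genes, by margins narrower than the spread within the miR-NT pair. SRSF12 was left out as dim, at 3.73 and 3.70 with miR-20a, against 3.59 and 3.68 with miR-NT.

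A second probe set existed for SRSF1 and for HNRNPA1, and in both cases it gave another size of difference. The chosen SRSF1 probe set has the suffix x_at, which Affymetrix gives to sets that may cross-hybridise with other transcripts. The other measured 6.32 and 6.09 with miR-20a, against 6.64 and 6.25 with miR-NT, where the groups overlap. Its log2 fold change was −0.24 (SE 0.15), with limma adjusted p = 0.414 when all 18060 probe sets were fitted on their own, and that of the chosen set was −0.97 with adjusted p = 0.0760 in the same fit. The mean of the pair gave −0.60 (limma adjusted p = 0.106). For HNRNPA1, the partner that classically opposes SRSF1 in the choice of 5′ splice sites, the chosen set, also x_at, measured 10.85 and 10.80 with miR-20a, against 10.92 and 10.80 with miR-NT. Its log2 fold change was −0.04 (SE 0.10), within the spread between replicates. The other set measured 6.82 and 6.77 with miR-20a, against 7.06 and 7.29 with miR-NT, without overlap (log2 fold change −0.38, SE 0.11, limma adjusted p = 0.192). RefSeq names 75 pseudogenes after HNRNPA1 and 1 after SRSF1. It also names 17 after HNRNPA3, 9 after HNRNPC, 5 after SRSF3 and 2 after SRSF10. SRSF7 and SRSF10 were read by x_at sets as well. Which transcripts each set reads was not established.

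**Figure D3:**
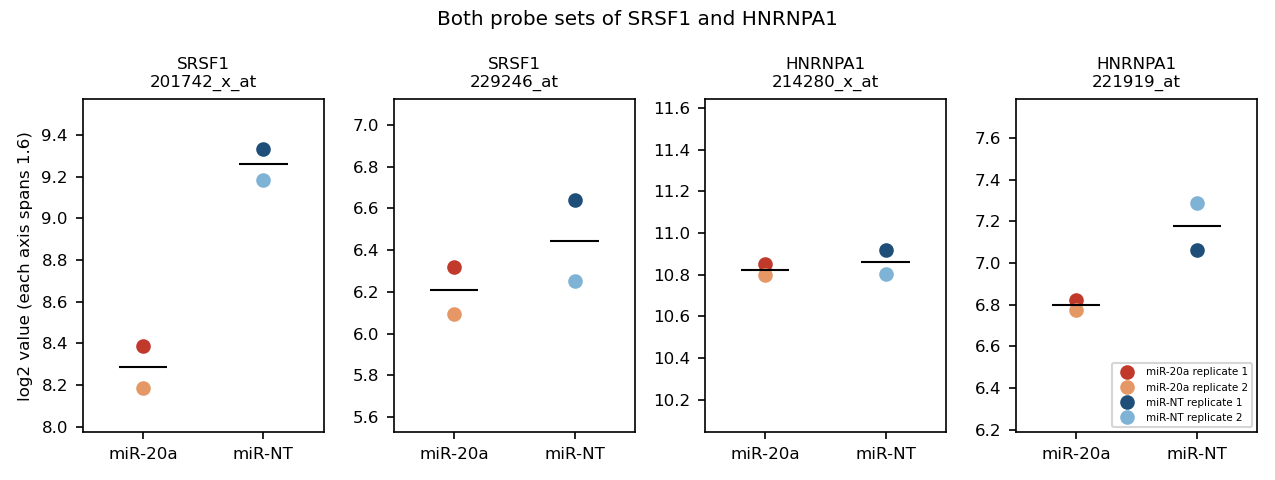
Log2 values of both probe sets of SRSF1 and HNRNPA1 are plotted by array, with black lines at the group means (n = 2 each) and every vertical axis spanning the same width. The brighter SRSF1 set separates the groups by 0.97 and the dimmer one by 0.24, and for HNRNPA1 the dimmer set separates them by 0.38 and the brighter by 0.04.

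Among the 19 hnRNPs tested, 18 lay below 0 and 1 above, and the median of their log2 fold changes was −0.27. None passed over all genes (limma adjusted p from 0.0963 to 0.887). At an unadjusted limma p under 0.05, 12 were lower and 0 higher, against 13.2% and 5.82% of all tested genes. Both arrays with miR-20a lay below both with miR-NT for 16, against 31.1% of all tested genes. The family's median was −0.16 after quantile normalization, where HNRNPH3, HNRNPA1 and HNRNPL turned above 0, and 0.05 with the ACTB 5′ covariate.

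HNRNPC, which binds uridine tracts of nascent transcripts as a tetramer, had the lowest value of the family. It measured 9.80 and 9.40 with miR-20a, against 10.35 and 10.30 with miR-NT. The gap between the groups was wider than the difference within either pair (log2 fold change −0.72, SE 0.14, limma adjusted p = 0.0963). Leaving out an array gave HNRNPC a limma adjusted p of 5.28e-06 (miR-20a replicate 1), 0.0252 (miR-20a replicate 2), 0.701 (miR-NT replicate 1) and 0.324 (miR-NT replicate 2). Its log2 fold change stayed between −0.93 and −0.52 in these fits and was at −0.13 with the ACTB 5′ covariate. HNRNPDL, a relative of HNRNPD, measured 8.62 and 8.07 with miR-20a, against 9.02 and 8.85 with miR-NT. Its replicates differed by 0.55 within the miR-20a pair, about as much as its log2 fold change of −0.59 (SE 0.18). HNRNPD, also called AUF1, which binds AU-rich elements in mRNAs, had a log2 fold change of −0.33, with 0.34 between the miR-20a replicates.

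HNRNPF and its relatives of the H group bind runs of guanines. HNRNPF measured 8.99 and 8.46 with miR-20a, against 9.51 and 9.37 with miR-NT. The groups do not overlap, and the miR-20a replicates lay 0.53 apart (log2 fold change −0.71, SE 0.17, limma adjusted p = 0.124). HNRNPH1 and HNRNPH3 had log2 fold changes of −0.29 and −0.09. All 3 genes of the U group, named for a protein of the nuclear scaffold, had log2 fold changes of −0.41 or lower. Each had both miR-20a arrays below both with miR-NT, against 31.1% of all tested genes. HNRNPUL2 measured 6.10 and 5.93 with miR-20a, against 6.78 and 6.36 with miR-NT (log2 fold change −0.55). HNRNPUL1 measured 8.93 and 8.57 with miR-20a, against 9.37 and 9.18 with miR-NT (−0.52). HNRNPU itself had a log2 fold change of −0.41, read by a probe set at 5.58 on average, close to the dimmest level tested, 5.46. With the ACTB 5′ covariate HNRNPUL2 was at −0.24, HNRNPUL1 at 0.035 and HNRNPU at 0.14.

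Values of the A/B group were smaller but differed little between replicates. HNRNPA2B1, known for binding RNA sorted to neuronal processes and exosomes, measured 9.47 and 9.40 with miR-20a, against 9.69 and 9.83 with miR-NT (log2 fold change −0.32, SE 0.10, limma adjusted p = 0.184). HNRNPA3 had a log2 fold change of −0.24 and HNRNPAB one of −0.23. In these 3 genes, all lower with miR-20a, the gap between the groups exceeded the difference within either pair. This held on the lower side for 7 splicing factors, SRSF1, HNRNPC, U2AF2 and U2AF1 being the other 4, against 8.85% of all tested genes. On the higher side it held for 1, HNRNPA0, against 9.19%. HNRNPA0 was the hnRNP above 0, at 7.32 and 7.26 with miR-20a, against 7.12 and 7.06 with miR-NT, without overlap (log2 fold change 0.20, SE 0.10, limma adjusted p = 0.302). Under the ACTB 5′ covariate HNRNPA2B1 was at −0.23, HNRNPA3 at −0.23, HNRNPAB at −0.12 and HNRNPA0 at 0.29.

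The poly(C)-binding HNRNPK, the CA-repeat-binding HNRNPL, its relative HNRNPLL, HNRNPM and HNRNPR had log2 fold changes from −0.27 (HNRNPLL) to −0.03 (HNRNPL). HNRNPL measured 10.56 and 10.20 with miR-20a, against 10.48 and 10.35 with miR-NT. The miR-20a replicates of HNRNPL lay on either side of the miR-NT pair.

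**Figure D4:**
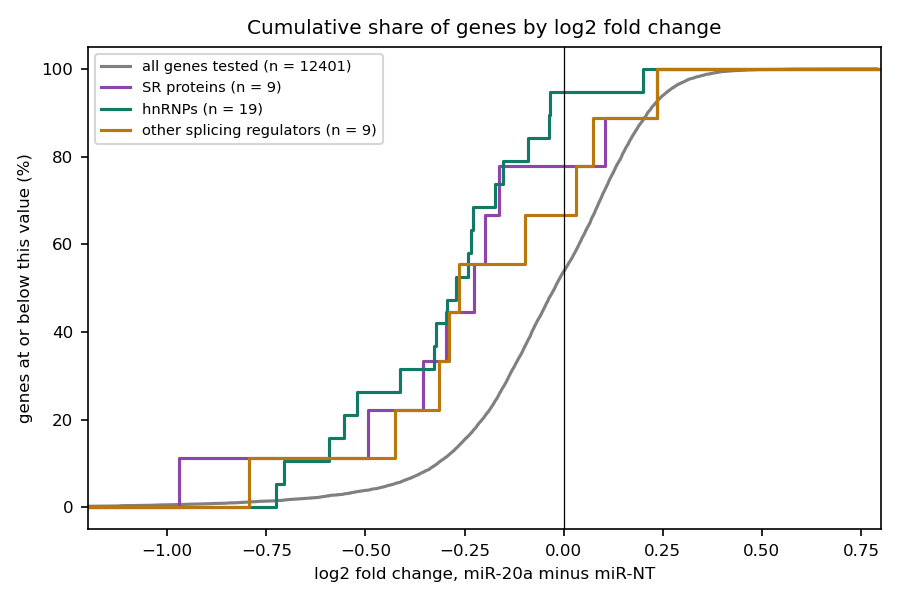
The share of genes (%) at or below each log2 fold change (miR-20a minus miR-NT) is drawn for SR proteins (n = 9), hnRNPs (n = 19), the other splicing regulators (n = 9) and all 12401 genes tested. The 3 families lie left of the curve of all genes over most of the range, with medians of −0.23, −0.27 and −0.26, against −0.02 for all genes.

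Of the 9 partners of SR proteins and hnRNPs tested, 6 lay below 0 and 3 above, and their median was −0.26 on the log2 fold change scale. None passed over all genes (limma adjusted p from 0.0963 to 0.853). At an unadjusted limma p under 0.05, 5 were lower and 0 higher, against 13.2% and 5.82% of all tested genes. Their median was −0.19 after quantile normalization and −0.005 with the ACTB 5′ covariate.

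U2AF, the heterodimer that marks the 3′ splice site, was lower in both subunits. U2AF2, the subunit that binds the polypyrimidine tract, measured 7.40 and 7.12 with miR-20a, against 8.25 and 7.86 with miR-NT. This was the second-lowest log2 fold change of the 37, −0.79 (SE 0.16), or 1.73-fold lower, with limma adjusted p = 0.0963. Leaving out an array gave U2AF2 a limma adjusted p of 2.32e-05 (miR-20a replicate 1), 0.00885 (miR-20a replicate 2), 0.701 (miR-NT replicate 1) and 0.321 (miR-NT replicate 2). Its log2 fold change stayed between −0.99 and −0.60 with an array left out and was −0.34 with the ACTB 5′ covariate. U2AF1, which reads the AG at the intron's end, measured 7.89 and 7.88 with miR-20a, against 8.17 and 8.13 with miR-NT. Its replicates lay within 0.04 of each other in both groups, and its log2 fold change of −0.26 (SE 0.09, limma adjusted p = 0.216) was −0.25 with the covariate.

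TRA2B and TRA2A, SR-like activators that bind purine-rich enhancers, both lay lower without overlap. TRA2B measured 10.80 and 10.51 with miR-20a, against 11.13 and 11.04 with miR-NT (log2 fold change −0.43, SE 0.12, limma adjusted p = 0.163). TRA2A measured 9.77 and 9.52 with miR-20a, against 9.89 and 9.98 with miR-NT (log2 fold change −0.29). SRRM2, a scaffold of nuclear speckles, measured 10.68 and 10.87 with miR-20a, against 10.62 and 10.46 with miR-NT. It lay higher without overlap, by less than the spread within either pair (log2 fold change 0.24, SE 0.11, limma adjusted p = 0.303), while the splicing coactivator SRRM1 was at −0.10.

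The kinases that phosphorylate the arginine-serine tails differed among themselves. SRPK2 measured 6.62 and 6.39 with miR-20a, against 6.77 and 6.88 with miR-NT (log2 fold change −0.32, SE 0.11, limma adjusted p = 0.216). SRPK1 measured 7.86 and 7.90 with miR-20a, against 7.88 and 7.74 with miR-NT (log2 fold change 0.07), and CLK1 was at 0.03, both with overlapping groups. PTBP2, the PTB protein of neurons, was left out as dim, at 3.77 and 3.77 with miR-20a, against 3.64 and 3.66 with miR-NT.

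**Figure D5:**
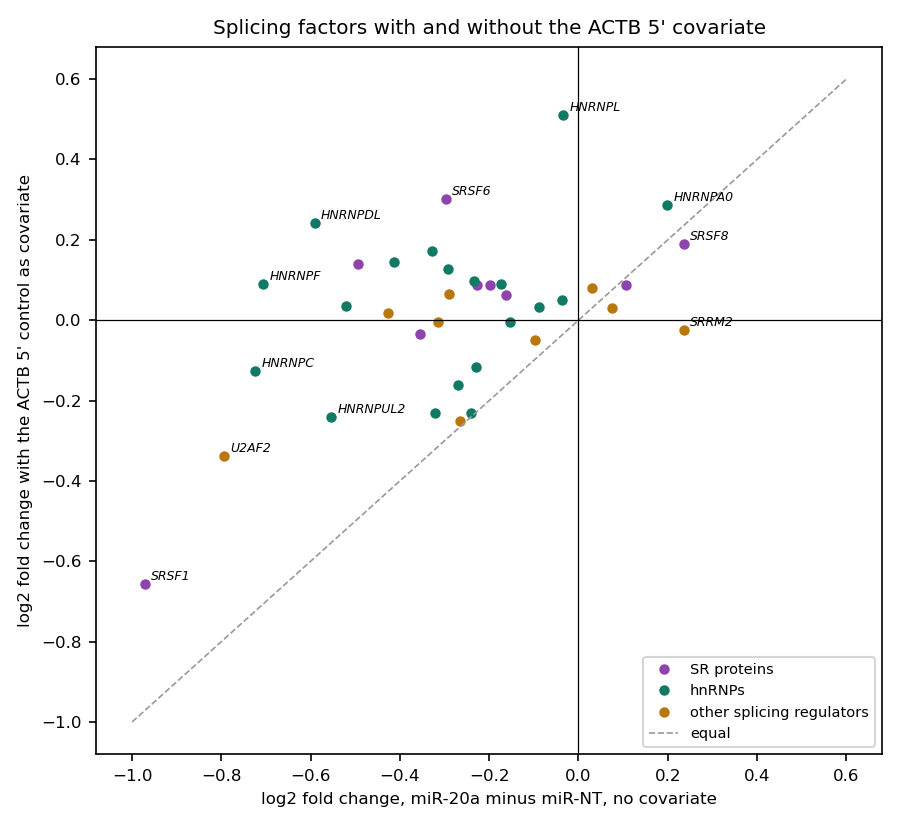
The log2 fold change of each of the 37 splicing factors (miR-20a minus miR-NT) is plotted without a covariate (horizontal) and with ACTB 5′ in the fit as covariate (vertical), with the dashed line where both are equal. SRSF1 (−0.97 and −0.66) and U2AF2 (−0.79 and −0.34) stay lowest, and 18 genes below 0 on the horizontal axis lie above 0 on the vertical one.

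Across the fit and its 12 alternatives, 10 splicing factors stayed below 0 in every one. These were SRSF1, SRSF3, HNRNPC, HNRNPA2B1, HNRNPA3, HNRNPAB, HNRNPK, U2AF2, U2AF1 and SRPK2. Most alternatives could not turn these signs. Other filters, another variance prior and the replicate block leave log2 fold changes as they are, and median centring hardly moves them. Averaging probe sets changes only SRSF1 among these. Leaving out an array cannot turn a gene whose groups do not overlap, as in all 10. Quantile normalization and the ACTB 5′ covariate could turn them. HNRNPUL2 and HNRNPLL stayed below 0 wherever they were fitted, but were left out as dim where the dimmest 50% of genes were dropped. With them counted in, 12 of the 37 stayed below 0 wherever fitted, against 2384 of all 12401 tested genes. SRSF8, SRSF11, HNRNPA0, SRPK1 and CLK1 stayed above 0, and the share of all genes that did so was not counted. The 18 that turned above 0 with the ACTB 5′ covariate included HNRNPF (0.09), HNRNPDL (0.24), SRSF10 (0.14) and SRSF6 (0.30).

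Splicing genes outside these families were taken from 5 lists, and in none did a gene pass over all genes in limma. The shares of all tested genes to set beside each list are 53.8% below 0, and, at an unadjusted limma p under 0.05, 13.2% lower and 5.82% higher. Small nuclear ribonucleoproteins of U1 and U2 with the SF3 proteins, which recognise the splice sites and the branch point, had log2 fold changes with a median of −0.05 in 23 tested genes, 15 below 0, with 2 lower and 0 higher at an unadjusted p under 0.05. The lowest p there was that of SF3A1, which measured 8.68 and 8.24 with miR-20a, against 9.15 and 8.92 with miR-NT (log2 fold change −0.58), followed by SNRPB (−0.39) and SF3B1 (−0.27). Under the ACTB 5′ covariate they were at 0.09, −0.03 and 0.15. Proteins of the tri-snRNP and the catalytic core had a median of −0.10 over 31, 23 of them below 0, with 9 lower and 1 higher at an unadjusted p under 0.05. PRPF31, a tri-snRNP assembly factor, measured 7.24 and 6.39 with miR-20a, against 8.04 and 7.83 with miR-NT (log2 fold change −1.11, SE 0.24). Its miR-20a replicates differed by 0.85, and LSM4 and DHX38 were at −0.78 and −0.41. The covariate put PRPF31 at 0.16, LSM4 at −0.00074 and DHX38 at −0.19.

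SR-related proteins and the exon junction complex came closest to the families above, with a median of −0.24 over 18 tested genes, 14 below 0, and 6 lower and 3 higher at an unadjusted limma p under 0.05. The cyclin CCNL2 was at −0.60, CCNL1 at −0.67 and SREK1 at −0.44, and with the covariate at −0.21, 0.28 and −0.24. The list's median was −0.12 after quantile normalization. Other splicing regulators had a median of −0.04 over 32, with 17 below 0 and 15 above, 9 lower and 3 higher at an unadjusted p under 0.05. NONO, a paraspeckle protein, was at −0.63, MBNL1 at −0.61 and the cold-inducible CIRBP at −0.47, and with the covariate at −0.17, 0.07 and −0.28. Further kinases, a phosphatase and the importers of SR proteins had a median of −0.14 over 10, 8 below 0, with 4 lower and 1 higher at an unadjusted p under 0.05. The higher one was CLK4, a kinase of the CLK1 family, at 6.12 and 6.25 with miR-20a, against 5.79 and 5.86 with miR-NT (log2 fold change 0.36, SE 0.10, limma adjusted p = 0.158), while TNPO3, which imports SR proteins into the nucleus, was at −0.39 and AKT1 at −0.32. With the covariate CLK4 was at 0.16, TNPO3 at 0.29 and AKT1 at 0.05.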

How the data were processed

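Per the labels' protocols, biotinylated cRNA was made from 6 ug of column-purified total RNA and hybridised to Affymetrix arrays. The table deposited by the authors holds 1 log2 value per probe set and array; the scale was judged from the range. The package affy is named in the submitters' processing notes; how background and normalization were handled, and the genome build, is not given in the sources used here. Gene names came from the platform annotation (18062 with 1 symbol, 886 with several, 1375 without), with symbols updated through RefSeq gene identifiers (18036 matched). Control probe sets were left out of gene tests, as were the 5315 genes in the lowest 30% by mean. The test was that of limma (version 3.58.1, under R 4.3.3), two-sided and without covariate, with Benjamini-Hochberg adjustment over 12401 genes. The fit had 2 residual and 5.53 prior degrees of freedom. It was also run on simulated data with independent errors, whose variances were drawn from the fit's own prior. Those data held no shift shared by many genes on an array, so that run cannot tell how such a shift acts here. With 2 arrays a group an exact permutation p is at least 0.333, so no such test was made. The number of arrays limits the precision.

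The genes, lists and tests were chosen with earlier results of these data known, and SRSF1 was already known to rank high. Described with every array's value are, per family, the 6 genes with the smallest p and the 2 with the largest positive log2 fold change, and, by log2 fold change, the 3 genes of each list with the smallest p. Values of SRSF12, PTBP2, HNRNPA1 and HNRNPL, and the grouping of genes by role, were added after the values were seen. Alternatives were quantile normalization, median centring, other filters, another variance prior, averaging the probe sets of a gene, ACTB 5′ signal as covariate, the replicate number as a block, and each array left out. Fitting every probe set on its own was chosen after seeing the data.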

Additional observations from a re-analysis of the deposited data

How the results depend on the processing

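No splicing factor passed in the limma fit. There 20 were lower and 0 higher at an unadjusted p under 0.05, against 1633 and 722 of all 12401 genes. SRSF1 was the 1 that passed after quantile normalization (log2 fold change −0.89), median centring (−0.97) and an intensity trend with a robust prior (−0.97). Of all 12401 genes 5, 47 and 24 passed under these settings in that order, against 1 in the limma fit without them. With an array left out the number that passed ranged from 0 (either miR-NT array) to 16 (without miR-20a replicate 1), with 3 without miR-20a replicate 2, and SRSF1 ranged from −1.07 to −0.87. At an unadjusted p under 0.05, with an array left out, 6 to 23 were lower and 0 to 1 higher. In these fits the group with a lone array borrows the other pair's spread, so the counts depend on which pair is kept. The number of all tested genes that passed also rose without either miR-20a array, most without miR-20a replicate 1. The counts with an array left out are therefore not specific to splicing factors. With the ACTB 5′ covariate 1 was lower and 1 higher at an unadjusted limma p under 0.05, against 429 and 417 of all 12401 genes. After quantile normalization 14 were lower and 3 higher, against 1451 and 1583 of all genes. With the replicate number as a block 0 passed, and SRSF1 had limma adjusted p = 0.139. In that fit 20 were lower and 1 higher at an unadjusted p under 0.05, against 2127 and 1024 of all genes. The pairing by number is not stated in the labels; deviations of same-numbered arrays correlated at r = 0.267 over 12401 genes.

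Family medians with the ACTB 5′ covariate were 0.087 (SR proteins), 0.050 (hnRNPs) and −0.0046 (partners), and after quantile normalization −0.10, −0.16 and −0.19. That of the partners was −0.18 without a filter on dim genes. With an array left out they ranged from −0.33 to −0.10, −0.35 to −0.19 and −0.27 to −0.16 in that order. With the covariate SRSF10 was at 0.14, SRSF7 at 0.088, SRSF6 at 0.30, HNRNPF at 0.089, HNRNPUL1 at 0.035, HNRNPDL at 0.24, TRA2B at 0.018, TRA2A at 0.065, HNRNPA1 at 0.050 and SRRM2 at −0.025, each opposite in sign to the fit without it. HNRNPA1 was also at 0.084 after quantile normalization and ranged from −0.096 to 0.022 with an array left out. The cause was not tested.

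List medians with the covariate were 0.089 (U1, U2 and SF3), 0.16 (tri-snRNP and core), 0.086 (SR-related), 0.11 (other regulators) and 0.0018 (kinases and importers). After quantile normalization U1, U2 and SF3 were at 0.072, tri-snRNP and core at −0.023, SR-related at −0.12, other regulators at 0.032 and kinases and importers at −0.093. The other regulators were at −0.0010 without a filter and −0.0010 when probe sets were averaged per gene, and the kinases and importers at −0.24 with the dimmest 50% left out. Leaving out an array moved these medians within −0.085 to 0.0055, −0.22 to −0.018, −0.38 to −0.10, −0.070 to 0.0021 and −0.20 to −0.047 in that order.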
